A study of Mus musculus with 2 samples.

Results

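The desmosome is the spot-like junction that fastens epithelial cells to each other and anchors their keratin filaments. Its 10 genes described here were taken by symbol, out of 32285 genes measured, by a rule that holds no measured value but with earlier results of these data known: the desmogleins Dsg1a, Dsg2 and Dsg3, the desmocollins Dsc1, Dsc2 and Dsc3, the plakin Dsp, the armadillo protein gene Jup, and the plakophilins Pkp1 and Pkp3. They were followed from the basal to the upper layer of mouse gingival epithelium and between 2 libraries.

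The data were single-cell RNA-seq libraries of the palatal gingiva of female C57BL/6 mice of 8 to 12 weeks, 1 from mice given CpG ODN, a synthetic DNA ligand of TLR9, and 1 from mice given P. gingivalis LPS, a ligand of TLR2 and TLR4. Each ligand (3 µl at 1 µg/ml) was kept on the palatal gingiva for 1 h under an oral appliance, and the tissue was taken 4 days later. Cells of 4 mice were pooled into each library, so a ligand had 1 library, no ligand was compared with an untreated library, and no test between ligands could be made. No genetic change was named for either group.

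The CpG ODN library held 6219 barcodes and 72173148 UMIs (unique molecular identifiers, 1 for each captured RNA molecule), and the LPS library 2016 barcodes and 38656738 UMIs. Only cells in which 800 or more genes were detected entered, 4888 and 1277 cells with medians of 11077.5 and 22680 UMIs. The libraries shared 5 barcodes, 1 of them among the kept cells. All 10 genes passed the filter on low counts in the comparison of the upper with the basal layer.

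Desmosomal cadherins, the desmogleins and desmocollins, reach across the gap between neighbouring cells and bind their partners there. On the inside, plakoglobin (the product of Jup) and the plakophilins bind the cadherin tails, and desmoplakin (Dsp) ties them to keratin. Stratified epithelia are known to exchange cadherin isoforms as keratinocytes leave the basal layer, with Dsg2, Dsg3 and Dsc3 known from the deep layers and Dsg1 and Dsc1 from the superficial ones, and desmoglein 3 and desmoglein 1 are the antigens of pemphigus, a blistering disease of mouth and skin.

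The kept cells were clustered without the 10 genes and without the other junction genes reported here, and 10 of 27 clusters, holding 4031 of 6165 cells, were placed in 3 layers by their keratins. The basal layer (1165 cells in the CpG ODN and 267 in the LPS library) had 6472 and 6818 CPM of Krt5, the keratin of basal cells, where CPM is a gene's count per 1000000 UMIs summed over the cells of a class. A UMI stands for a molecule captured at its 3′ end, so gene length does not enter CPM, while how well each gene is captured was not tested. The upper layer (715 and 193 cells) had 277 and 192 CPM of Krt5, and 7077 and 7068 CPM of Krt10, a keratin of differentiated cells, against 52.6 and 37.7 in the basal layer. Of the markers listed for each layer, 9 of 10 basal and 13 of 13 upper markers were highest in their own layer in both libraries. A layer name also asked for at least 3 markers of its list, so this agreement was partly fixed by the naming. Between the basal and the upper layer lay cells (1402 and 289) with 12529 and 14089 CPM of Krt76, a keratin of the suprabasal gingiva, and little Krt10 (764 and 1190.1 CPM). Only 1 of the 11 lower spinous markers, Notch3, was highest in these cells, the others being higher still in the upper layer, so they are called the intermediate layer here.

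The median depth rose with the layer, from 9415 and 18072 UMIs per basal cell through 14955.5 and 29447 to 29895 and 55843 per upper cell. The summed level of 6 fibroblast markers was 554 and 678 CPM in the basal layer, with Pdgfra at 0, against 39.5 to 48.2 CPM in the intermediate and 5.55 to 51.5 CPM in the upper layer, and its part in the values was not tested. Lists of B-cell, endothelial and myeloid markers summed to at most 16.1 CPM in any layer, and the T-cell list to 25.1 to 54.4 CPM. The 4 red cell markers summed to 329 and 539 CPM in the basal, 276 and 483 in the intermediate and 148 and 335 in the upper layer, and their part was not tested.

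Of the 10 genes, Dsp and Jup had a promoter in the RefSeq table (GRCm38.p6). They are the pair of plaque genes that every desmosome uses, and the 250 bases before the start of each are shown with every GC box (GGGCGG, on either strand) in capitals, 5′ to 3′ on the strand of the gene.
Dsp, chr13:38151044-38151293, plus strand: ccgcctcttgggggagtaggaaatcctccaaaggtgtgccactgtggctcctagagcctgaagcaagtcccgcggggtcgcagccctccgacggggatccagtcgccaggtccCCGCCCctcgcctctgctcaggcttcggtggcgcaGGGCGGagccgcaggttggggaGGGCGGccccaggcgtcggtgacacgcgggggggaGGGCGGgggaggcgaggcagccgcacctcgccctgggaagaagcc
Jup, chr11:100397791-100398040, minus strand: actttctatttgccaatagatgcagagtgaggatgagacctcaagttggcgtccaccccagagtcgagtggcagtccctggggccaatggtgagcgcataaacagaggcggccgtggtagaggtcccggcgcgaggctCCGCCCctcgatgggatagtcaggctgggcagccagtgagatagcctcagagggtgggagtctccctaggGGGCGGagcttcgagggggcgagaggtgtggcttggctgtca
The Dsp promoter held 72.4% G and C and 4 GC boxes, the farthest starting 137 bases before the start, and the Jup promoter 62.0% and 2 GC boxes, the farthest starting 112 bases before it. A GC box was found in 32.7% of 32851 promoters of this length. The other motifs were searched on both strands and found in neither window, which says only that their letters are not there. The AP-1 motif TGANTCA is held by 6.75% of all promoters of this length. The motif of the grainyhead-like factors, AACCNGTT, is held by 1.79% of them, and a TATA box, TATAAA, by 12.4%.

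In the mouse genome (GRCm38, GENCODE M21, used for positions only) the 6 cadherin genes lay in 1 cluster on chromosome 18. The desmocollins are on the minus strand, with Dsc3 at 19960930 to 20002351, Dsc2 at 20030633 to 20059554 and Dsc1 at 20084184 to 20114871. The desmogleins follow on the plus strand, with Dsg1a at 20310811 to 20343350, Dsg3 at 20510274 to 20547459 and Dsg2 at 20558074 to 20604521. Dsg1b and Dsg1c, close copies of Dsg1a, lie on either side of it, and reads of these copies cannot always be assigned to 1 of them, so the split within Dsg1 is uncertain. The other members lay apart, Dsp at chromosome 13, 38151294 to 38198577 (plus strand), Jup at chromosome 11, 100368958 to 100397763 (minus), Pkp1 at chromosome 1, 135871395 to 135919207 (minus), and Pkp3 at chromosome 7, 141078218 to 141090510 (plus). Dsg2 overlaps Gm16090, an annotated antisense gene.

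From the basal to the upper layer, 5 of the 10 genes rose at least 2-fold in both libraries (Dsg1a, Dsc1, Dsc2, Jup and Pkp1), 2 fell at least 2-fold (Dsg2 and Dsc3), and 3 passed the limit in neither direction (Dsg3, Dsp and Pkp3). Among 6791 genes with at least 100 UMIs in either layer of each library, 11.7% rose and 19.4% fell by this rule, 31.0% in all. Dsc1 passed this count filter only through the upper layer and Dsg2 only through the basal layer. Their calls thus lean on a filter passed only where they were high. The median log2 ratio of the 10 genes was 1.34, against −0.32 over all genes tested. The layers of a library came from the same mice, the rule is one of size and not a test, and the SD given with each log2 ratio is that of the 2 libraries, which had different ligands. Intervals are 95% and cover counting error only. With TMM scaling, which sets the bulk of the genes rather than the UMI total level between layers and moved the log2 ratios by 0.65 and 0.67, the counts were 7 higher and 1 lower, and 21.2% and 9.17% of all genes.

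**Figure D1:**
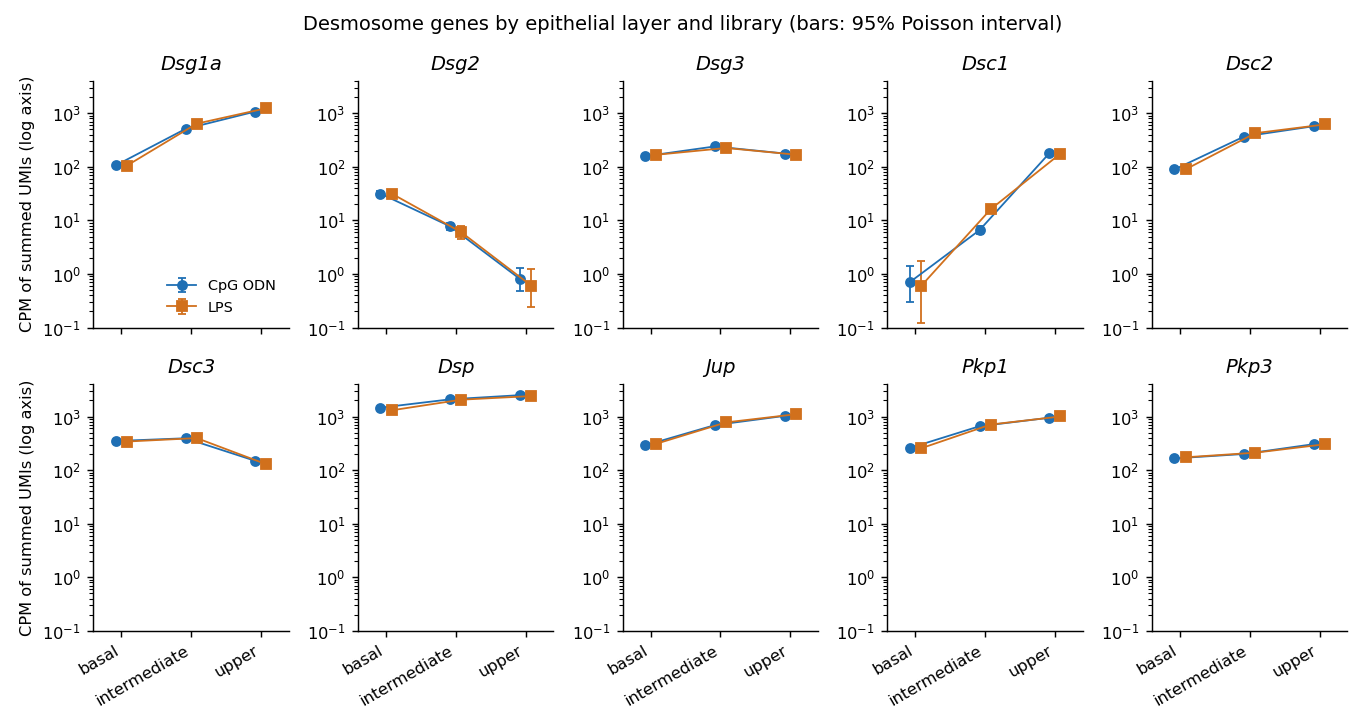
CPM of summed UMIs (log axis) of each of the 10 genes in the basal, intermediate and upper layer, circles and squares for the CpG ODN and LPS libraries, bars the 95% Poisson interval. The libraries lie close together except for Dsc1 in the intermediate layer. Dsc1 climbs from below 1 to 179 and 177 CPM, Dsg2 drops from 31.7 CPM in both libraries to 0.807 and 0.607, and Dsp is the highest gene in every layer.

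Dsg1a, the desmoglein 1 copy that makes up most of the Dsg1 UMIs here, was at 106 CPM in the basal, 511 in the intermediate and 1077 in the upper layer of the CpG ODN library. In the LPS library it was at 105, 640.2 and 1245 CPM. The upper layer was 10.1-fold (9.55 to 10.7) and 11.8-fold (10.8 to 12.9) higher than the basal one, a log2 ratio of 3.45 ± 0.16 (SD, n = 2 libraries). Most of that step lay below the intermediate layer, which was 4.80-fold and 6.07-fold above the basal one. The step from intermediate to upper was 2.11-fold (2.06 to 2.16) and 1.95-fold (1.89 to 2.01), on either side of the 2-fold limit. Because upper cells were deeper, each cell was also thinned to 1500 UMIs, which no cell of the layers fell short of. Dsg1a was then detected in 13.7% and 13.6%, 46.7% and 53.9%, and 75.5% and 79.4% of cells from the basal to the upper layer. In B cells (523 and 73 cells, medians of 2923 and 3207 UMIs), which should lack desmosomes, the thinned shares were 0.71% and 0.79% for Dsg1a, 0.04% and 0 for Dsg2 and 0.48% and 0 for Dsc3.

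Dsg2, the desmoglein that simple epithelia also use, went the other way. It was at 31.7 CPM in the basal layer of each library (361 and 161 UMIs), at 7.73 and 6.00 in the intermediate and at 0.807 and 0.607 in the upper layer (18 and 7 UMIs). The upper layer had 0.0255 (0.0149 to 0.0408) and 0.0191 (0.00757 to 0.0403) of the basal level, a log2 ratio of −5.32 ± 0.18 (SD, n = 2 libraries). It fell 4.10-fold and 5.29-fold on the first step already. A Dsg2 UMI was found in 24.0% and 39.7% of basal cells and in 2.24% and 3.11% of upper cells, and after thinning in 4.42% and 4.46% against 0.10% and 0.08%.

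Dsg3, the pemphigus vulgaris antigen, was nearly level by contrast. Its CPM were 158, 241 and 177 from the basal to the upper layer with CpG ODN and 168, 225 and 169 with LPS, highest in the intermediate layer in both. The upper layer was at 1.12 (1.06 to 1.19) and 1.00 (0.926 to 1.09) of the basal level, and relative to the median gene its log2 ratio was 0.47 and 0.36. With TMM scaling the log2 ratio was 0.81 and 0.68, still short of 2-fold. The basal clusters differed less in Dsg3 (129.6, 154 and 181 CPM with CpG ODN, 132, 173 and 191 with LPS) than in Dsg1a (46.1, 146 and 115, and 53.8, 144 and 117).

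Dsc1, the desmocollin of the most superficial layers, had the widest range of the 10 genes. Only 8 and 3 UMIs were counted in the basal layer (0.702 and 0.592 CPM), 149 and 151 in the intermediate (6.58 and 16.2 CPM), and 4001 and 2038 in the upper layer (179 and 177 CPM). The upper level was 255 times (129.5 to 592) and 299 times (102 to 1450.2) the basal one, a log2 ratio of 7.92 ± 0.05 (SD, n = 2 libraries, prior of 1 UMI), and 27.2 (23.1 to 32.3) and 10.9 times (9.26 to 13.0) the intermediate one. A Dsc1 UMI was found in 0.69% and 0.75% of basal, 6.56% and 16.3% of intermediate and 61.5% and 77.2% of upper cells, which after thinning became 0.10% and 0.07%, 0.79% and 1.90%, and 18.4% and 20.4%. In B cells no Dsc1 UMI was found in either library, 0 of 523 and 0 of 73 cells, with exact 95% upper limits of 0.703% and 4.93%, which hold for cells with a UMI and not for cells expressing the gene.

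Dsc2, the desmocollin of widest tissue distribution, was at 89.2, 368 and 575 CPM from the basal to the upper layer with CpG ODN and at 89.7, 426 and 619 with LPS. The upper layer was 6.44-fold (6.04 to 6.87) and 6.90-fold (6.28 to 7.61) above the basal one, a log2 ratio of 2.74 ± 0.07 (SD, n = 2 libraries). Like Dsg1a, it rose mainly on the first step, 4.13-fold and 4.75-fold.

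Dsc3, the basal desmocollin of skin, was the most abundant desmocollin of the basal layer. It was at 349, 393 and 149 CPM with CpG ODN and at 341, 396 and 128 with LPS, so the basal and intermediate layers differed little and the drop lay above them. The upper layer had 0.426 (0.407 to 0.446) and 0.376 (0.350 to 0.403) of the basal level, a log2 ratio of −1.32 ± 0.13 (SD, n = 2 libraries). It was 2.64-fold and 3.09-fold below the intermediate one. Its thinned share of cells was 38.9% and 38.7%, 44.2% and 43.5%, and 20.1% and 17.2%. The fall from the basal layer was below zero under all 12 alternatives, with log2 values of −1.33 to −0.66, and in at least 1 library it missed 2-fold with TMM scaling, with coarser clusters, with each library clustered on its own, with layers taken from a score and with a lower Krt10 limit.

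Dsp, the plakin that reaches the keratin filaments, was the most abundant of the 10 genes in all layers. It stood at 1462, 2094 and 2505 CPM with CpG ODN and at 1304, 2062 and 2407 with LPS. The upper layer was at 1.71 (1.68 to 1.74) and 1.85 (1.80 to 1.90) of the basal level, within the 2-fold limit, and past it with TMM scaling, at log2 ratios of 1.42 and 1.55.

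Jup, whose product plakoglobin also joins the adherens junction, was at 289, 692 and 1026 CPM with CpG ODN and at 309.8, 776 and 1103 with LPS. The rise from basal to upper was 3.55-fold (3.43 to 3.69) and 3.56-fold (3.38 to 3.76), nearly the same in both libraries, and 2.39-fold and 2.51-fold of it had taken place by the intermediate layer. Pkp1, the plakophilin of stratified epithelia, followed almost the same course, at 258, 658 and 948 CPM and at 254, 709 and 1001 CPM, a rise of 3.67-fold (3.53 to 3.82) and 3.94-fold (3.72 to 4.18). Pkp3, the plakophilin shared by simple and stratified epithelia, was at 165, 199.8 and 305 CPM and at 173, 211 and 304 CPM. Its upper layer was at 1.85 (1.76 to 1.95) and 1.75 (1.63 to 1.89) of the basal level, and it passed 2-fold with TMM scaling, at log2 ratios of 1.53 and 1.48.

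On the first step, from the basal to the intermediate layer, the same 5 genes rose at least 2-fold and Dsg2 fell, with 4.2% of 6622 genes tested rising and 5.62% falling, 9.82% in all. On the second step Dsc1 rose and Dsc3 fell among 9 genes tested (Dsg2 had too few UMIs), with 6.87% of 6989 genes rising and 8.36% falling, 15.2% in all. Over 15 alternatives the first step held 3 to 5 rising genes and the second 1 or 2, with 2 in 9 of the 15. With TMM scaling the added gene was Dsg1a. Its mean log2 ratio on the second step was 1.02 as reported and ran from 0.91 to 1.41 over 12 alternatives. Dsg2, untested on the second step, had there 0.104 (0.0604 to 0.170) and 0.101 (0.0389 to 0.223) of its intermediate level, from 175 and 56 UMIs in the intermediate layer. Dsc2 thus passed the limit on the first step only, Dsc3 on the second only, and Dsc1 on both.

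The sum of each family stood higher above the basal layer, and its composition differed. All desmoglein genes together were at 307, 824 and 1369.7 CPM from basal to upper with CpG ODN and at 317, 950.3 and 1537 with LPS. The desmocollins were at 439, 768 and 902 CPM and at 431, 838 and 924 CPM, and the plakophilins at 423, 858 and 1253 CPM and at 427.5, 919.8 and 1305 CPM.

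Of the desmoglein UMIs, Dsg1 (a, b and c together) held 38.3% in the basal, 69.9% in the intermediate and 87.0% in the upper layer with CpG ODN, and 37.1%, 75.7% and 89.0% with LPS. The gain from basal to upper was 48.7 and 51.9 percentage points (50.3 ± 2.25, SD, n = 2 libraries). Dsg3 made up the larger share of the basal layer, 51.4% and 52.9%, and held 12.95% and 10.98% of the upper one although its own CPM had hardly changed. Dsg2 held 10.3% and 10.0% of the basal and 0.06% and 0.04% of the upper desmogleins.

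The desmocollins changed hands in order. Dsc3 held 79.5% and 79.1% of their UMIs in the basal layer, 51.1% and 47.2% in the intermediate and 16.5% and 13.9% in the upper. Dsc2 held 20.3% and 20.8%, 48.0% and 50.9%, and 63.7% and 67.0%. Dsc1 held 0.16% and 0.14%, 0.86% and 1.93%, and 19.9% and 19.1%, a gain of 19.7 and 19.0 percentage points (19.3 ± 0.51, SD, n = 2 libraries). Dsc2, not Dsc1, was therefore the main desmocollin of the upper layer taken as a whole in both libraries. The plakophilins changed least, Pkp1 holding 61.0% and 59.5% of Pkp1, Pkp2 and Pkp3 UMIs in the basal, 76.7% and 77.0% in the intermediate and 75.6% and 76.7% in the upper layer.

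The isoforms overlapped within single cells. Dsg1a and Dsg3 UMIs were found together in 36.7% and 58.4% of basal, 84.9% and 96.2% of intermediate and 88.0% and 87.0% of upper cells, shares that also follow depth. Dsg2 was found with Dsg1a in 11.8% and 25.8% of basal cells. In the upper layer Dsc1 and Dsc3 were found together in 46.7% and 58.0% of cells and Dsc1 without Dsc3 in 14.8% and 19.2%. Cells with Dsc1 but no Dsc3 UMI numbered 0 in the basal and 0 in the intermediate layer of both libraries. Dsc1 was found in only 8 and 2 basal and in 92 and 47 intermediate cells. Most other cells of these layers held a Dsc3 UMI, so these counts say little about overlap. Cells with Dsc2 but no Dsc3 UMI made up 16.8% and 21.8% of the upper layer.

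To follow the course without layer borders, the cells of the 3 layers were ordered within each library by a score of upper minus basal markers, which used none of the 10 genes, and were divided into 10 bins of equal size. The Dsg1 share of desmogleins went from 36.0% in the first to 91.7% in the last bin with CpG ODN and from 34.3% to 93.1% with LPS. Dsg2 went from 35.1 and 37.8 CPM to 0.366 CPM (4 UMIs) and 0. Dsg3 was highest in the middle, at 257 CPM in bin 6 with CpG ODN and 273.5 in bin 7 with LPS, and stood at 116 and 99.6 CPM in the last bin.

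Dsc1 came late along the score. Its share of desmocollin UMIs was 8.1% and 14.0% in bin 9 and 35.0% and 36.3% in bin 10. Dsc2 was highest in bin 9 (681 and 678 CPM) and stood at 472 and 463 CPM in bin 10. Dsc3, highest at 409 CPM in bin 5 with CpG ODN and at 439.8 in bin 6 with LPS, stood at 68.4 and 43.4 CPM in the last bin. The order of the desmocollins was thus Dsc3, Dsc2 and then Dsc1 in both libraries. The median depth rose along the score, from 9172 to 34055.5 and from 17770 to 66146.5 UMIs per cell, so the CPM and not the shares of cells are given.

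**Figure D2:**
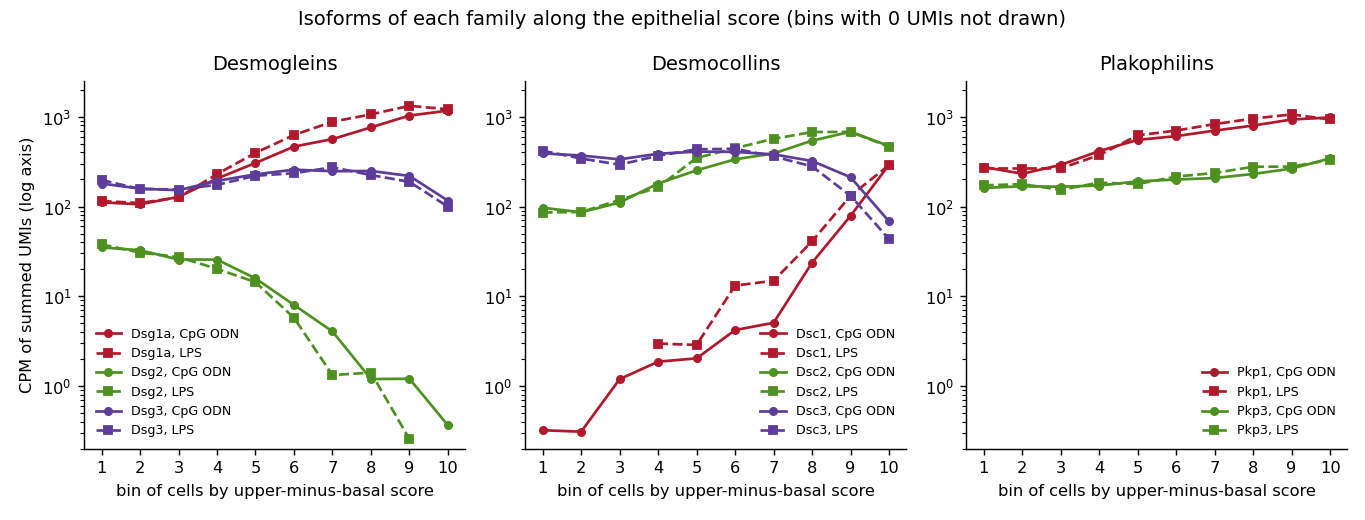
CPM of summed UMIs (log axis) of the isoforms of each family in bins of the layer cells ordered by a score of upper minus basal markers, by library, bins with 0 UMIs not drawn. Dsg1a climbs across the bins while Dsg2 drops out, and Dsc1 reaches 292 and 289 CPM in the last bin, where Dsc3 is at 68.4 and 43.4 CPM.

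The 4 clusters of the upper layer, in the order of the score, drew the same late exchange. Dsc1 was at 39.2, 114, 224 and 422 CPM with CpG ODN and at 42.3, 119.5, 199 and 294 with LPS. Dsc3 was at 268, 186, 90.5 and 20.7 CPM, and at 305, 189, 87.2 and 6.64. Both courses ran one way across all 4 clusters in both libraries, in opposite directions. Dsc2 was at 541, 723, 632 and 287 CPM, and at 526, 757, 756 and 347, and Dsg3 at 242, 194, 167 and 56.8 CPM, and at 269, 197, 169 and 68.3. The last cluster (90 and 34 cells), led by Lor, a cornified envelope gene, and by Krt4, was thus the lowest of the 4 in Dsc2, Dsc3 and Dsg3 and the highest in Dsc1. There Dsc1 held 57.8% of the desmocollin UMIs against 39.3% for Dsc2 with CpG ODN, and 45.4% against 53.6% with LPS.

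Other desmosomal and cornified envelope genes moved in the same comparison, 5 of 6 tested rising and 1 falling, with 9 listed, where 11.7% of all genes rose and 19.4% fell. Dsg1b rose from 11.1 to 112 CPM with CpG ODN and from 11.8 to 119.5 with LPS. Perp, a tetraspan desmosome protein, rose from 1349 to 5003 and from 1393 to 4755 CPM, and so exceeded Dsp in the upper layer. The plakins Ppl and Evpl, which also build the cornified envelope, rose from 35.7 to 213 and from 32.9 to 318 CPM, and from 26.9 to 191 and from 29.4 to 251 CPM. Cdsn, the corneodesmosome protein, rose from 0.263 to 17.9 and from 0.197 to 65.7 CPM, with its UMIs in 3.08% and 7.77% of upper cells and 42.1% of those of the LPS library in 1 cell. Pkp4, an armadillo protein related to the plakophilins, fell, from 37.4 to 17.3 and from 34.3 to 12.0 CPM. Dsg4 had 0 UMIs in both layers and Pkp2 at most 1 per layer and library.

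The genes of other junctions are counted by the same rule, against the 31.0% of all genes that passed it in either direction. Of 7 tight junction genes tested out of 9, 5 rose (Cldn1, Cldn4, Ocln, Tjp3 and Cgn), Cldn4 from 0.965 to 198 and from 1.77 to 231 CPM. Of 5 gap junction genes 4 rose (Gja1, Gjb2, Gjb5 and Gjb6), with Gja1, connexin 43, at 150.5 and 677 CPM and at 148 and 732. Of 9 adherens junction genes 2 rose (Afdn and Nectin4) and 1 fell, the classical cadherin Cdh3, from 37.7 to 3.67 and from 45.7 to 2.60 CPM. Cdh1, E-cadherin, was at 71.3 and 115 CPM and at 81.4 and 131, within 2-fold. The medians of the log2 ratios were 2.94 for the other desmosome genes, 4.36 for tight, 2.24 for gap and 0.29 for adherens junctions, against −0.32 for all genes. These lists were not tested as sets.

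Of 5 genes listed as regulators of the desmosome, the grainyhead-like factors Grhl1 and Grhl3 rose. Grhl1 went from 3.25 to 91.7 CPM and from 3.94 to 91.9, and Grhl3 from 2.63 to 53.3 and from 3.55 to 70.1. Prkca, the protein kinase C known to act on desmosomal adhesion, fell from 22.6 to 6.45 CPM and from 28.4 to 5.29. Adam10 and Adam17, the sheddases, stayed within 2-fold.

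**Figure D3:**
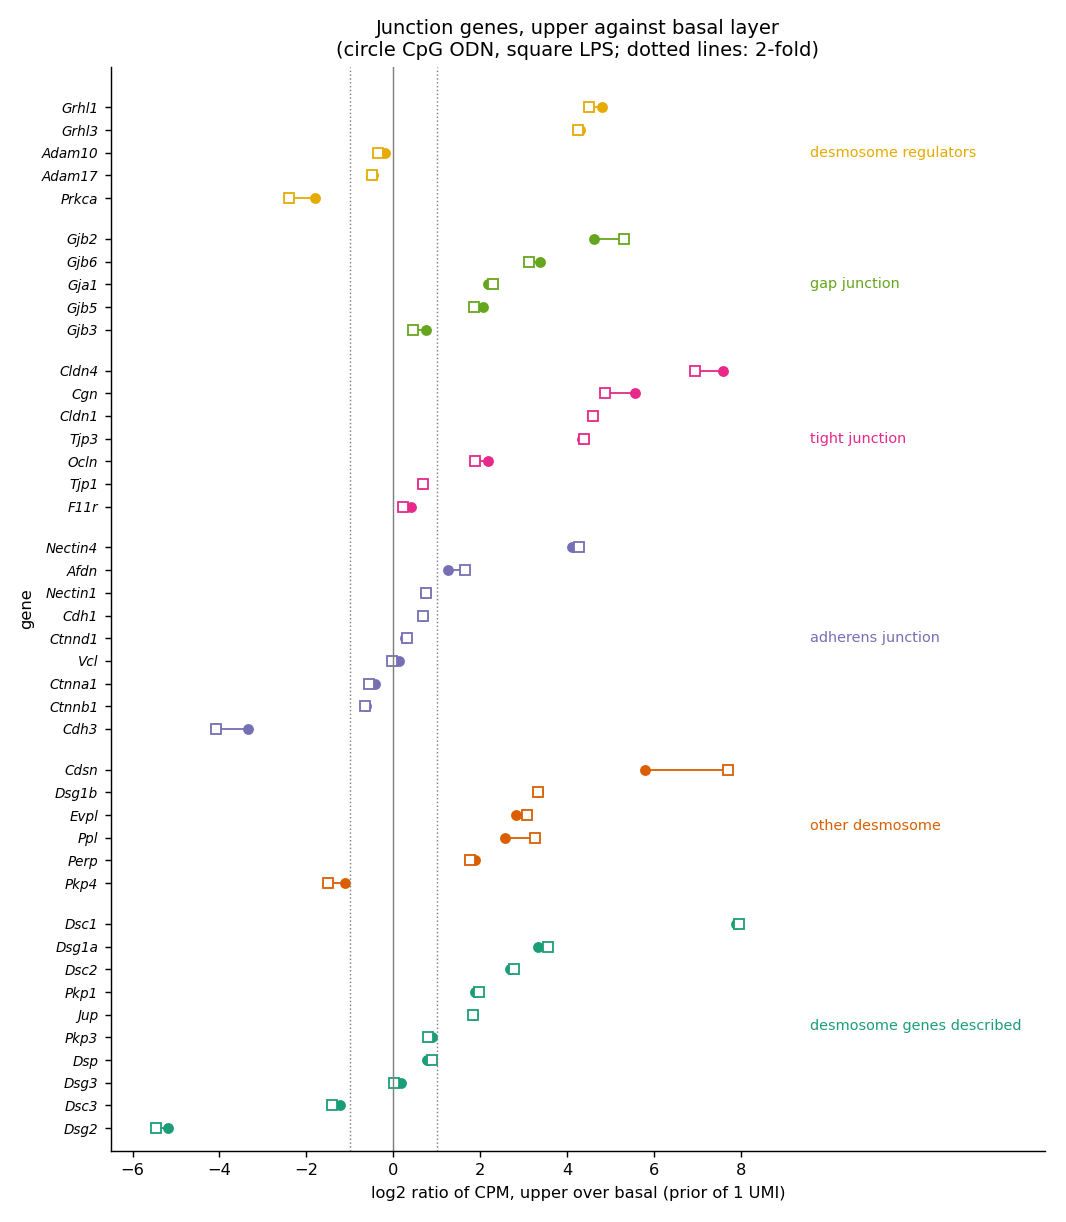
Log2 ratio of CPM, upper over basal layer (prior of 1 UMI), of the 10 genes and of the other junction lists, circles for CpG ODN and squares for LPS, dotted lines at 2-fold. Dsc1 at 7.92 and Dsg2 at −5.32 (means of 2 libraries) are the ends of the 10 genes, and the circles and squares of most genes lie close together.

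The same genes took other proportions in the other epithelia of the tissue. In cells high in Odam, a gene of the junctional epithelium that meets the tooth (17 cells in each library), Dsg2 was at 148 (103 to 205) and 197 CPM (163 to 237), above every gingival layer, and Dsg3 at 590.0 and 442. Dsg1a had only 3 and 4 UMIs there (12.6 and 6.81 CPM), and Dsc1 had 0, which allows up to 12.6 and 5.10 CPM (3 UMIs). Dsc2 held 79.8% and 79.1% of the desmocollin UMIs, at 699.6 and 529 CPM against 177 and 139.5 for Dsc3. All Dsg1 copies together had 6 and 26 UMIs in the Odam cells, 3.31% and 6.47% of their desmoglein UMIs, and Dsg1b alone had 5.47% of these desmoglein UMIs with LPS.

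Epithelium with Adh7 and low Krt4 (116 and 88 cells) had 7.03 and 13.2 CPM of Dsg1a, 161 and 169 of Dsg3, 196 and 219.9 of Dsc3 and 636 and 677 of Dsp, the last less than the basal gingiva. Epithelium with Adh7 and high Krt4 (90 and 66 cells), Krt4 being a keratin of non-cornified mucosa, had 319 and 295 CPM of Dsg1a, 509 and 443 of Dsc2 and 36.9 and 42.2 of Dsc1. Dsg1b held 13.4% and 13.2% of its desmoglein UMIs, at 91.4 and 79.3 CPM. Dividing cells (259 and 69) lay near the basal layer, with 159 and 110.2 CPM of Dsg1a, 36.9 and 31.3 of Dsg2, 202 and 210.3 of Dsg3 and 377 and 358 of Dsc3.

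**Figure D4:**
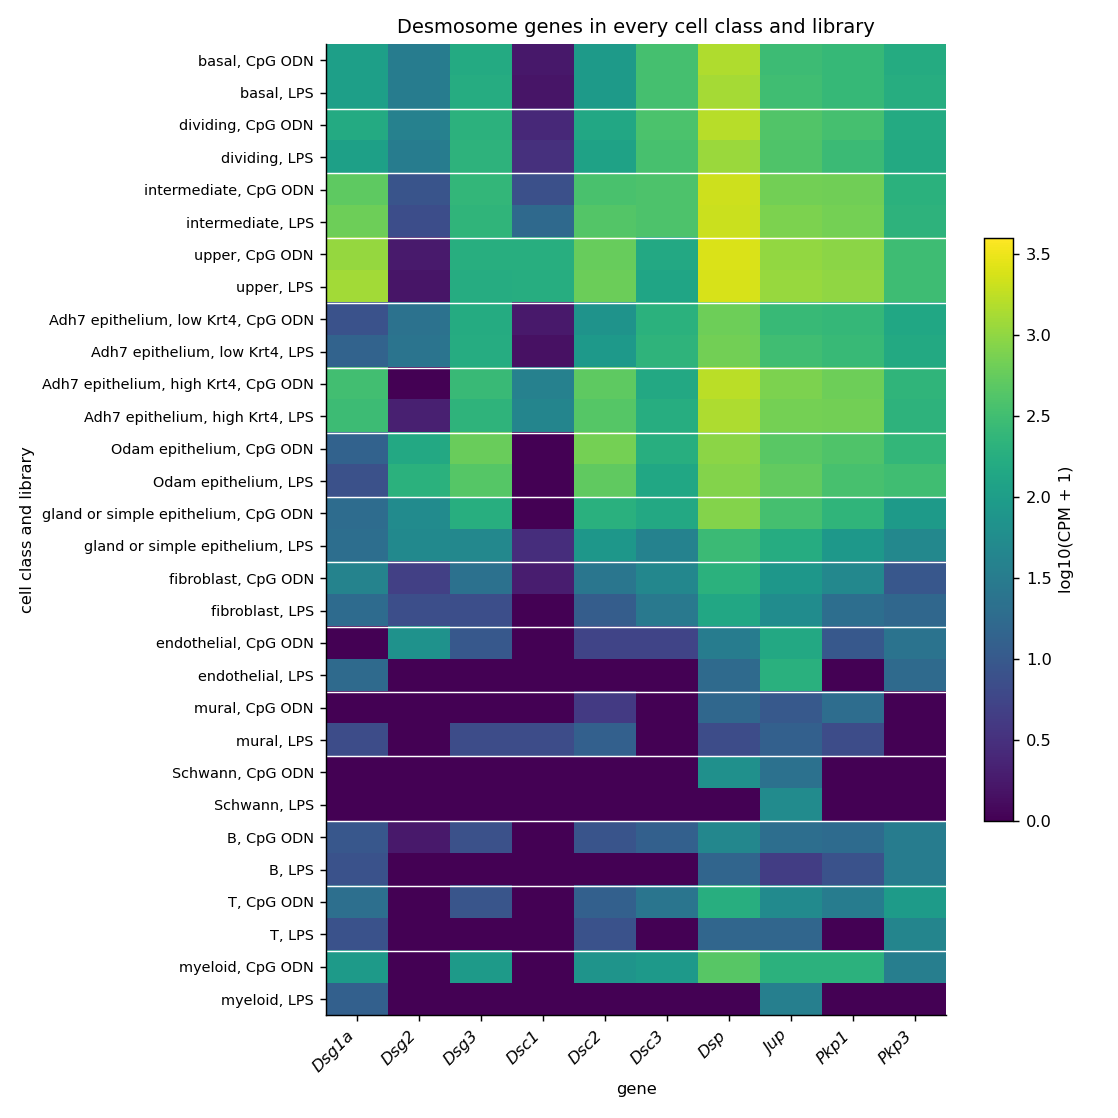
Level of the 10 genes (columns, log10 of CPM + 1) in every cell class of each library (lines). The epithelial classes carry most of the signal, Dsg2 is brightest in the Odam cells (148 and 197 CPM), and Dsc1 is bright in the upper layer (179 and 177 CPM).

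Between the libraries, none of the 9 genes tested in the basal layer, 1 of 10 in the intermediate and none of 9 in the upper layer differed by 2-fold, where 0.226%, 0.418% and 1.81% of all genes tested in these layers did. Of all genes, 0.133% were higher and 0.0931% lower with CpG ODN in the basal, 0.267% and 0.151% in the intermediate, and 0.38% and 1.43% in the upper layer. With 1 library per ligand these ratios have no replicate check, and ligand, mice and library cannot be told apart. The ratios of CpG ODN to LPS ran from 0.93 to 1.12 in the basal layer. In the upper layer Dsg1a was at 0.86, Pkp3 at 1.00 and Dsc3 at 1.16 (1.09 to 1.23). These ratios lay closer to 1 than those between neighbouring layers for Dsg1a.

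The exception was Dsc1 in the intermediate layer, at 6.58 CPM with CpG ODN and 16.2 with LPS, a ratio of 0.41 (0.32 to 0.51). Its 3 clusters held 3.46, 2.99 and 14.4 CPM with CpG ODN and 3.79, 16.03 and 25.2 with LPS. The 2.99 and 16.03 came from 19 and 39 UMIs, in 14 of 386 and 14 of 77 cells. A single cell held 21.1% and 35.9% of these UMIs. The last of the 3 clusters, nearest the upper layer, held 327 of 1402 cells against 105 of 289. Krt10 was also lower in the CpG ODN intermediate layer, at 764 against 1190.1 CPM. The log2 difference ran from −2.32 to −1.14 over 12 alternatives. With coarser clusters, with layers from the score and with the lower Krt10 limit it had too few UMIs to be tested, and the part of the layer's makeup in it was not tested further. In the upper layer the libraries were at 179 and 177 CPM of Dsc1. Of the other junction genes tested only Cdsn passed 2-fold between libraries, at 17.9 CPM with CpG ODN and 65.7 with LPS in the upper layer, a ratio of 0.27 (0.24 to 0.31). Those UMIs came from 22 of 715 and 15 of 193 cells. Lor was at 605 and 4354 CPM over all cells of the upper layer.

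**Figure D5:**
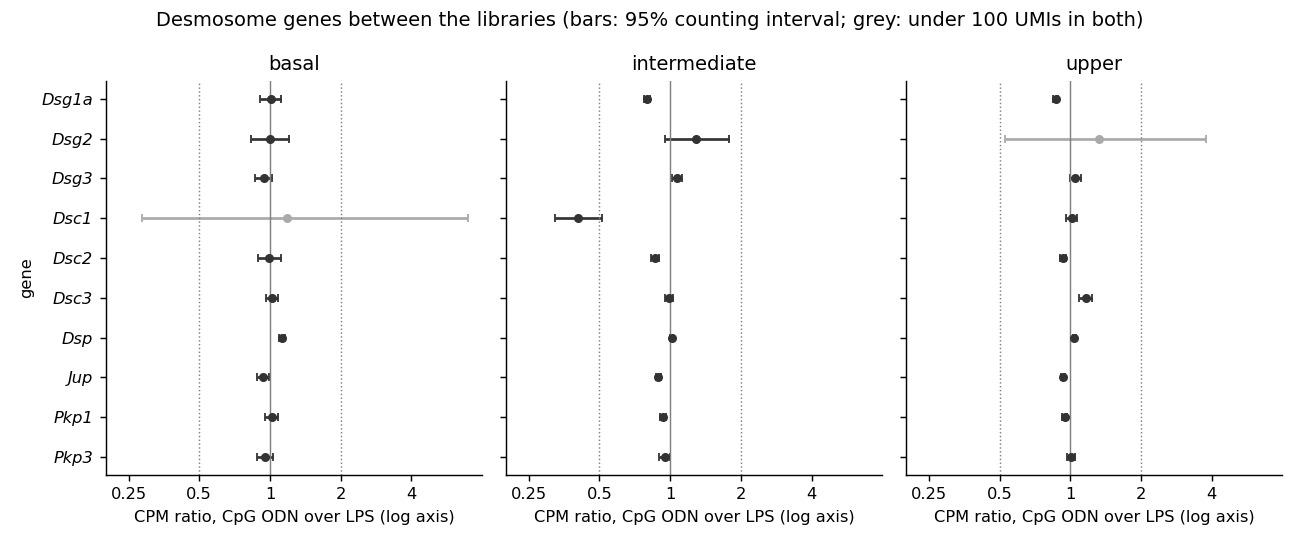
Ratio of CPM, CpG ODN over LPS (log axis), of the 10 genes in each layer, bars the 95% counting interval, grey for genes with under 100 UMIs in both libraries. Dsc1 in the intermediate layer, at 0.41, is the only black point past 2-fold.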

How the data were processed

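Per the labels and the file headers, the authors deposited 1 filtered matrix of raw UMI counts per library (10x 3′ libraries of collagenase II and trypsin digests, Cell Ranger 4.0.0), with no normalization. The genome build was not given in the sources used here. Of 32285 identifiers, 32158 were in GENCODE M21. Cells with at least 800 genes were kept, without a mitochondrial filter or a doublet caller. Counts were scaled to 10000 per cell and logged, and 2000 variable genes (49 junction genes held out), 30 components, 15 neighbours and Leiden resolution 1.0 gave 27 clusters (Python 3.11.15, scipy 1.17.1, scikit-learn 1.9.0, leidenalg 0.10.2). Clusters were named by levels in CPM: Krt10 of at least 3000 for the upper and Krt76 of at least 5000 for the intermediate layer, with Krt14 of at least 2500 for all layers. The marker lists were fixed before the clusters were seen, but this naming rule was set afterwards. Counts were summed per class and library, with exact Poisson, conditional binomial and Clopper-Pearson intervals. A call was a 2-fold ratio, in both libraries for layers, of genes with at least 100 UMIs on either side of the comparison. For layers this count was asked for in each library. All members were reported, and the other genes named by their list, 2 of which are not reported here and left out of its counts. The calls were run on simulated counts with planted folds and counting error only, which cannot show how they hold against spread between cells, mice or libraries. Members and lists were chosen with earlier results of these data known.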

Additional observations from a re-analysis of the deposited data

How the results depend on the processing

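Of the counts of calls and the family shares, 108 values were the same and 15 moved under the alternatives, and none changed sign. A share within the SD of the libraries was taken as the same, and so was a count near the reported one. Small shifts of a count are thus not shown by this label. More genes were called from intermediate to upper in 10 of 15 alternatives, and fewer fell from basal to upper in 6 of 15. The gain of Dsc1 within the desmocollins, 19.3 percentage points as reported, was 18.7 with cells of at least 200 genes, 14.96 at resolution 0.5, 17.2 with each library clustered on its own, 16.3 with layers from the score and 18.0 as a mean over cells. The gain of Dsg1 was 42.2 at resolution 2.0 and 46.1 with the score, and that of Pkp1 11.2 at resolution 2.0. Members past the fold limit from intermediate to upper numbered 1 with a fold of 3, and between the libraries in the intermediate layer 0 at resolution 0.5, with the score and with a fold of 3. At resolution 0.5 and with the score Dsc1 had too few UMIs to be tested there, at log2 differences of −1.44 and −1.32. Of 2 alternatives chosen after seeing the data, an upper layer from 1500 CPM of Krt10 gave a Dsc1 gain of 15.1 and 0 members between the libraries, and leaving out the Lor cluster gave 14.3. The cause was not tested. For single genes, the same meant within the SD of the libraries between layers, or within counting error between libraries. By that rule 482 values were the same, 238 moved and no called value reversed. Of all 30 log2 differences between libraries, 15 changed sign under an alternative, none of them over 0.21 in size as reported. Of all 30 between layers, 1 did (Dsg3, upper against basal, −0.07 to 0.75), at 0.09 as reported. No paired analysis between the ligands was possible because that comparison holds a single library on either side. The layer ratios were taken within each library. Depth limits Dsc1 in the basal and Dsg2 in the upper layer, where no library had over 18 UMIs, and doublets were not removed.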

Other observations

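Some of the 10 genes had UMIs outside the epithelium beyond a constant proportion to the others. Pkp3 was at 31.1 and 31.5 CPM in B cells (12.6% and 10.96% of cells, CpG ODN and LPS) and at 94.98 and 42.9 CPM in T cells (17.5% and 23.1%). There were 68.6 (51.2 to 91.5) and 225 (62.8 to 999.9) Pkp3 UMIs per 100 Dsp UMIs in B cells and 53.3 (31.1 to 89.4) and 300 (53.6 to 3039) in T cells, against 11.3 and 13.3 in the basal and 12.2 and 12.6 in the upper layer. Of B cells with a Pkp3 UMI, 55 of 66 and 6 of 8 had none of Dsp. Sigirr lies 664 bases past the end of Pkp3 on the other strand and was at 6.00 and 3.50 CPM in B cells and at 27.7 and 0 in T cells, and its part was not tested.

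Jup, which endothelial cells are known to use at their own junctions, was at 146 (101 to 206) and 194 CPM (135 to 269) in endothelial cells, in 14 of 49 and 13 of 24 cells. That was 471 and 1167 Jup UMIs per 100 Dsp UMIs, against 41.0 and 45.8 in the upper layer. Myeloid cells of the CpG ODN library (33 cells) held 459 CPM of Dsp and 91.8 of Dsg1a, while those of the LPS library (13 cells) held 0 Dsp UMIs. Over both libraries the myeloid cells also held 1114 CPM of Krt14, 872 of Krt76 and 501 of Krt5. The part of keratinocyte RNA or doublets in these values was not tested.

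Among the genes whose levels ran most like Dsc1 over 30 points (epithelial clusters by library, which share libraries and depth, Pearson's r of log2 of CPM + 10) were Osbpl1a (0.978) and Ctnnbip1 (0.978), of 5868 candidates, and among the 10 genes Pkp3 (0.832) and Jup (0.818), with Dsg2 at −0.828. Those most like Dsg3 were Eif3b (0.891), Tspan9 (0.885) and Plpp2 (0.874), and among the 10 genes Dsc3 (0.753). Other genes of the junction lists and the cell type markers were left out of both rankings, and the 5868 were counted before that.

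The barcodes under 800 genes (1331 and 739) held 45.2 and 51.9 CPM of Dsg1a, 15.5 and 15.3 of Dsc1, 31.6 and 7.99 of Dsc3 and 168 and 129 of Dsp.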
